A study of Homo sapiens with 2 samples.

Results

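The proteasome genes were examined as targets of the RNA-binding protein RBM47 in brain metastatic breast cancer cells. They were chosen by gene symbol, as every row of the cluster table whose symbol begins with PSM, a letter from A to G and a number. The rule found 466 of the 233546 deposited clusters, under 36 of the 7712 genes that carry an identifier. One of the 36 symbols, PSMD6-AS2, names an antisense RNA and no proteasome protein. It had 1 cluster with 2 tags in replicate 1 and 3 in replicate 2, and was left out of the counts that follow. The remaining 465 clusters lay in 35 of the 48 genes with such symbols that encode proteasome subunits, activators, the inhibitor and assembly chaperones. Proteasome genes with other symbols, such as SEM1, ADRM1 and POMP, were read separately.

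The cells were MDA231-BrM2a, a line that forms brain metastases, was derived from human MDA-MB-231 breast cancer cells and is not a single clone. They carried Flag-tagged wild-type RBM47 under a promoter switched on by doxycycline. All received 1 ng/ml doxycycline for 3 days and then ultraviolet light, which links proteins to RNA in direct contact. In HITS-CLIP the Flag-tagged protein is purified with the RNA pieces bound to it, and these are sequenced. Unique pieces are called tags, and overlapping tags form a cluster. The labels give 1 group with 2 replicates, so no conditions were compared, and the contacts are those of the introduced protein. A transcript's tags move both with how much of it the cell holds and with how often RBM47 contacts it, and with neither RNA levels nor a control library analysed here these cannot be told apart. Nothing in the labels says that the replicates came from separate cultures.

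The proteasome degrades proteins marked with ubiquitin. Its 20S core is a barrel of alpha and beta rings, with the protein-cutting sites on beta subunits, and its 19S cap binds ubiquitin chains, removes them and feeds the substrate through a ring of ATPases into the core. Other particles can open the core from its ends, and dedicated chaperones assemble the pieces. Most of these genes are active in nearly all cells.

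Clusters were listed for most proteasome genes. Of the 48 genes, 35 had at least 1 cluster, or 72.9%, beside 36.2% of all 20056 protein-coding genes. A cluster of at least 10 tags was found in 22 of the 48, or 45.8%, beside 26.6% of protein-coding genes, and 11 had more than 100 tags in such clusters, or 22.9%, beside 14.9%. All protein-coding genes include many that these cells may not express, so the shares do not compare like with like. The counts rest on replicate 2, the deeper library. With it left out and the minimum applied to replicate 1 alone, 16 genes had a cluster and 0 had more than 100 tags. Once a gene was listed, its total was low. The median over the 35 genes was 28 tags in 4 clusters, and over all listed protein-coding genes it was 104 tags in 9 clusters.

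Coverage differed between the parts of the particle. In the 20S core, clusters were listed for 7 of 8 alpha genes, all but PSMA8, a form made in testis. Only 5 of 11 beta genes were listed, namely PSMB1, PSMB2, PSMB4, PSMB5 and PSMB7. PSMB5 and PSMB7 encode catalytic subunits, whereas PSMB6, which encodes the remaining constitutive catalytic subunit, had no cluster, nor had PSMB3. The genes of the immunoproteasome and thymus subunits, PSMB8, PSMB9, PSMB10 and PSMB11, also had none. In the 19S cap, 4 of 6 ATPase genes were listed, without PSMC1 and PSMC3, and 9 of 11 non-ATPase genes, without PSMD8 and the ubiquitin receptor gene PSMD4. Of the activators, PSME1, PSME3 and PSME4 were listed and PSME2 was not. The inhibitor gene PSMF1 was listed, as were 6 of 7 chaperone genes, all but PSMG4. A gene without a cluster is one with no region of at least 5 tags that has at least 1 tag in each replicate, and weaker contacts would not be seen.

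The tags were concentrated in a few genes. All proteasome clusters together held 4924 tags by the authors' total, of which 51.9% lay in PSME4, PSMD14, PSMG2 and PSMD1 and 89.6% in the first 12 genes. By role, the 19S non-ATPase genes held 35.4% of the tags, the activators 21.1%, the chaperones 19.7%, the beta genes 10.6%, the alpha genes 8.67% and the ATPase genes 4.02%. Per 1000 tags of a replicate in the table, the proteasome clusters held 1.22 in replicate 1 and 1.07 in replicate 2, a mean of 1.15 ± 0.107 (SD, n = 2).

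PSME4 encodes PA200, a large activator that caps the core. It had 215 tags in replicate 1 and 610 in replicate 2, or 195 ± 28.6 CPM (tags per 1000000 tags of the replicate in the table; SD, n = 2), the highest mean of the 35 genes. PSMD14, the lid enzyme that cuts ubiquitin chains off substrates, had 186 and 540 tags, or 170 ± 22.2 CPM. The third, PSMG2, a chaperone for the alpha ring, had 145 and 455 tags, or 138 ± 10.4 CPM. PSMD1, a scaffold of the 19S base, had 103 and 333 tags, or 99.3 ± 5.43 CPM. The lowest value of PSME4 was 174.8 CPM and the highest of PSMD14 was 186, so their ranges overlapped, although PSME4 was higher within each replicate, while PSMG2 lay below both replicates of PSMD14 and PSMD1 below both of PSMG2.

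The next group ran from 69.5 to 30.3 CPM. PSMD5, a chaperone of the base ATPases, had 73 and 230 tags, and the lid subunit gene PSMD12 had 67 and 218. The beta gene PSMB1 had 62 and 185 tags and PSMB2 54 and 182. PSMA1, an alpha gene, had 53 and 174 tags, the lid gene PSMD11 46 and 171, and PSME3, which encodes the nuclear activator PA28 gamma, 52 and 160. PSMC2, the ATPase gene with the most tags, had 31 and 103. Many of their replicate ranges overlapped, such as those of PSMD5 and PSMD12, of PSMB1, PSMB2 and PSMA1, and of PSMA1 and PSME3, so the order in this group was largely not settled. A step then separated PSMC2 from PSMA4, which had 13 and 56 tags, or 14.5 ± 2.15 CPM.

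**Figure D1:**
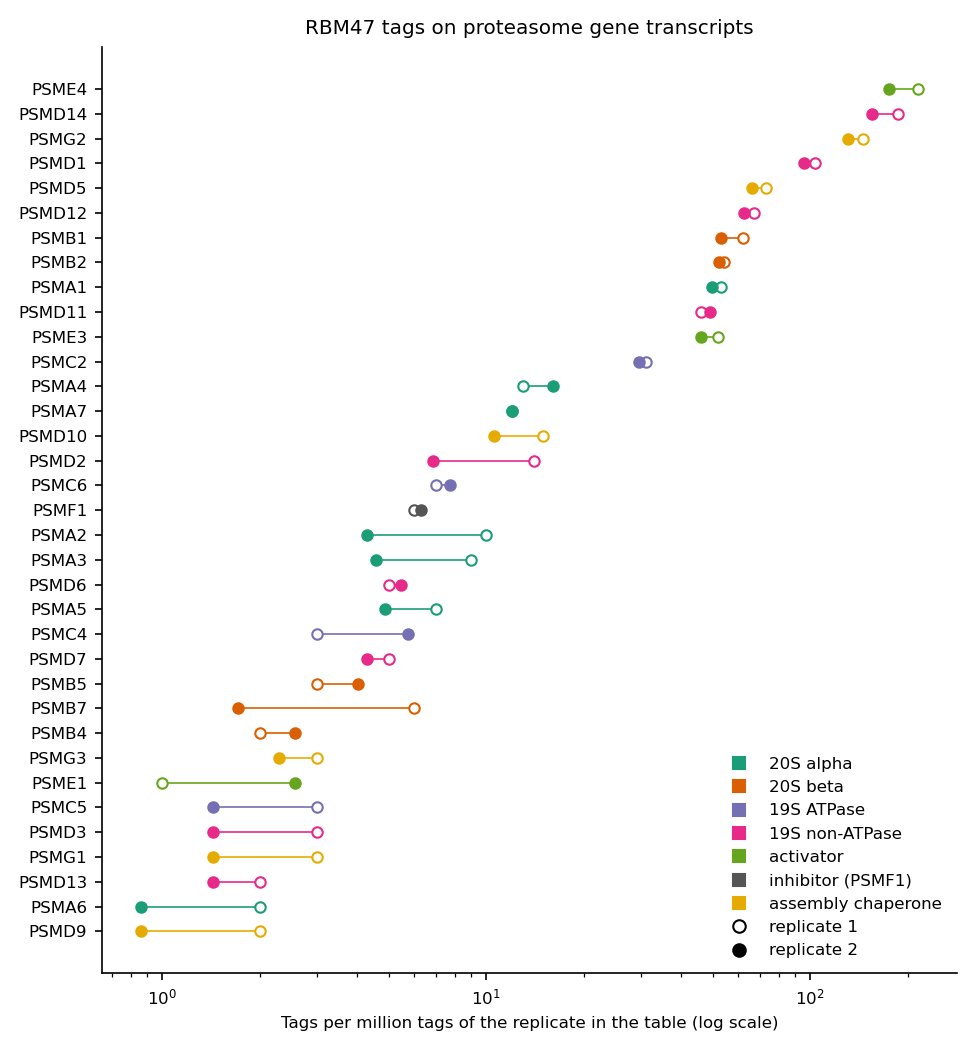
Tags of the 35 proteasome genes with a cluster, in CPM, relative to each replicate's tags in the table (log axis), ordered by total tags and coloured by role, with open circles for replicate 1 and filled circles for replicate 2. PSME4 leads at 195 CPM on average, and the 12 genes down to PSMC2 at 30.3 stand apart from PSMA4 at 14.5 and the genes under it.

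Among all 5600 genes with a cluster of at least 10 tags, ranked by tags in such clusters, PSME4 was at 1384 with 455 tags, PSMG2 at 1787 with 309 and PSMD12 at 1954 with 269. These are moderate positions, since the median such gene held 127 tags and the first 95142. The genes just above the limit of 100 tags were PSMD1 with 116 and PSMB1 with 109, and those just under it were PSMC2 with 86 and PSMA4 with 48. Per kb of cluster length the order changed. PSMD12 then led the proteasome genes with 356 tags per kb, at 565. PSMG3 followed at 603 and PSMB5 at 642, each on a single cluster, then PSMA1 at 817, PSMA4 at 1075 and PSMD5 at 1188. PSME4 had 154 tags per kb and was at 3118.

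By number, most clusters of the proteasome genes in the deposited table lay in introns. The order by number changed when replicate 2 was left out and the minimum applied to replicate 1 alone, which is stricter in the smaller library. Then 49 clusters remained, with 22.4% in introns and 34.7% in 3'UTRs alone. By tags in all deposited clusters, replicate 1 kept the order, with 43.3% of its proteasome tags in introns and 23.0% in 3'UTRs alone. Of 465 clusters, 261 were labelled as intron alone, or 56.1% (Wilson 95% interval 51.6 to 60.6), beside 56.2% of all clusters that carry a gene. The 3'UTR alone held 61 clusters, or 13.1% (10.3 to 16.5), beside 22.7%, and coding sequence (CDS) alone held 70, or 15.1% (12.1 to 18.6), beside 13.4%. Another 61 clusters, or 13.1%, had more than 1 label, beside 6.13% of all clusters with a gene. Among these were 26 labelled as 3'UTR and intron, 13 as CDS and 3'UTR and 22 as CDS and 5'UTR. Clusters of 1 gene are not independent, so the intervals cover counting error only.

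By tags, introns held 42.0% ± 1.81 of the proteasome total and 3'UTRs alone 23.9% ± 1.25 (SD, n = 2), so introns were higher in both replicates. Over all clusters with a gene the order by tags was the opposite, with 28.5% ± 2.37 in introns and 40.7% ± 1.55 in 3'UTRs. Counting every label that includes 3'UTR, the share of proteasome tags was 38.6%, beside 59.0% in all protein-coding genes. The intron tags came from few genes. PSME4, PSMD14, PSMG2 and PSMD1 held 225 of the 261 intron clusters, or 86.2%, and 21 of the 35 genes had no intron cluster. In the other 31 genes, introns held 20.5% of 176 clusters and 10.1% of the tags, and clusters with 3'UTR in the label held 47.7% and 66.8%.

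**Figure D2:**
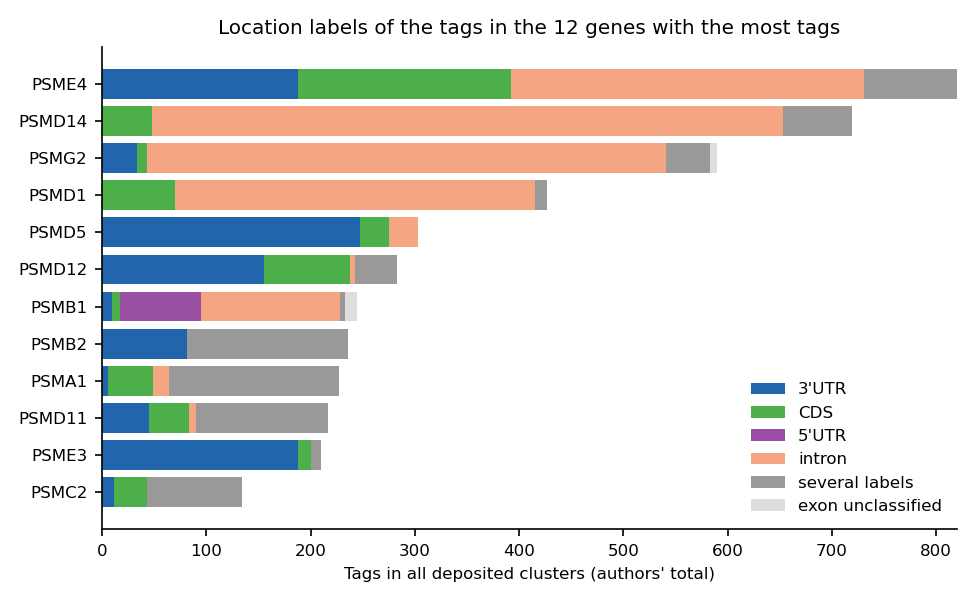
Tags in all deposited clusters (authors' total) of the 12 proteasome genes with the most tags, stacked by location label; clusters with more than 1 label form a class of their own. Intron tags fill most of the bars of PSMD14, PSMG2, PSMD1 and PSMB1, while 3'UTR and mixed labels fill most of those of PSMD12, PSMD5, PSMB2, PSMA1, PSMD11, PSME3 and PSMC2.

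Intron clusters were shallow. Their median was 6 tags, against 10 in 3'UTR clusters and 8 in CDS clusters, and over all clusters with a gene the medians were 7, 13 and 9. The distribution changed with the tag minimum. At 10 tags, 33.1% of 136 proteasome clusters were in introns and 25.0% in 3'UTRs alone. At 30 tags, 2 of 18 clusters were in introns, 11 in 3'UTRs alone and 5 under several labels, with none in CDS alone. The share of all gene clusters in introns at 30 tags was 18.5%.

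The 4 genes with the most tags did not show the same layout. Positions are those of the deposited table, on build hg18 as the submitters' processing notes name it; the genome of that build was not at hand, so no sequence is printed. PSMD14 (Entrez gene 10213, plus strand of chromosome 2) had 88 clusters over 91.4 kb, 82 of them in introns with 605 tags, or 84.1% of its tags. They lay along the gene but more densely toward its 5' side, at a median of 7 tags. The densest 5-kb window, chosen by its tags, was at 161891062 to 161895751 and held 12 clusters and 16.9% of the intron tags. Its largest cluster lay at the 3' end, at 161976313 to 161976473, labelled as 3'UTR and intron, with 9 tags in replicate 1 and 42 in replicate 2.

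PSMG2 (Entrez gene 56984, plus strand of chromosome 18) had 63 clusters over 66.9 kb, of which 53 were in introns with 498 tags, or 84.4%. Here the intron tags were also uneven, with a larger share in 1 window. A window at 12659513 to 12663581 held 13 clusters with 39 tags in replicate 1 and 125 in replicate 2, or 32.1% of the intron tags. The largest cluster was also in an intron, at 12681503 to 12681684, with 9 and 32 tags. On the opposite strand within the span, 4 clusters of CEP76 held 42 tags.

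PSMD1 (Entrez gene 5707, plus strand of chromosome 2) was also uneven. It had 57 clusters over 103.7 kb, with 47 in introns and 80.8% of its tags there. A single window at 231676781 to 231681742 held 14 intron clusters with 32 and 108 tags, or 39.1% of the intron tags. The largest cluster lay in this window, 46.1 kb from the first cluster, at 231681370 to 231681532, with 3 and 16 tags. No cluster of PSMD1 carried a 3'UTR label, and 13 clusters with no gene and 93 tags lay on the opposite strand within its span.

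PSME4 (Entrez gene 23198, minus strand of chromosome 2) had sizeable parts of its tags in introns, CDS and 3'UTRs. It had 81 clusters over 105.8 kb. Introns held 43 clusters and 41.3% of the tags, CDS alone 20 clusters and 24.9%, and 3'UTRs alone 7 clusters and 22.9%. The largest cluster was in the 3'UTR at 53945849 to 53946217, with 22 tags in replicate 1 and 93 in replicate 2, followed by an intron cluster near the 5' end at 54044408 to 54044817 with 8 and 37. Its densest window, at 53994086 to 53998981, held 16 intron clusters with 33 and 91 tags, or 36.6% of the intron tags. CDS alone held 16.4% of the tags of PSMD1, 6.68% of those of PSMD14 and 1.53% of those of PSMG2. No test was made between the genes.

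**Figure D3:**
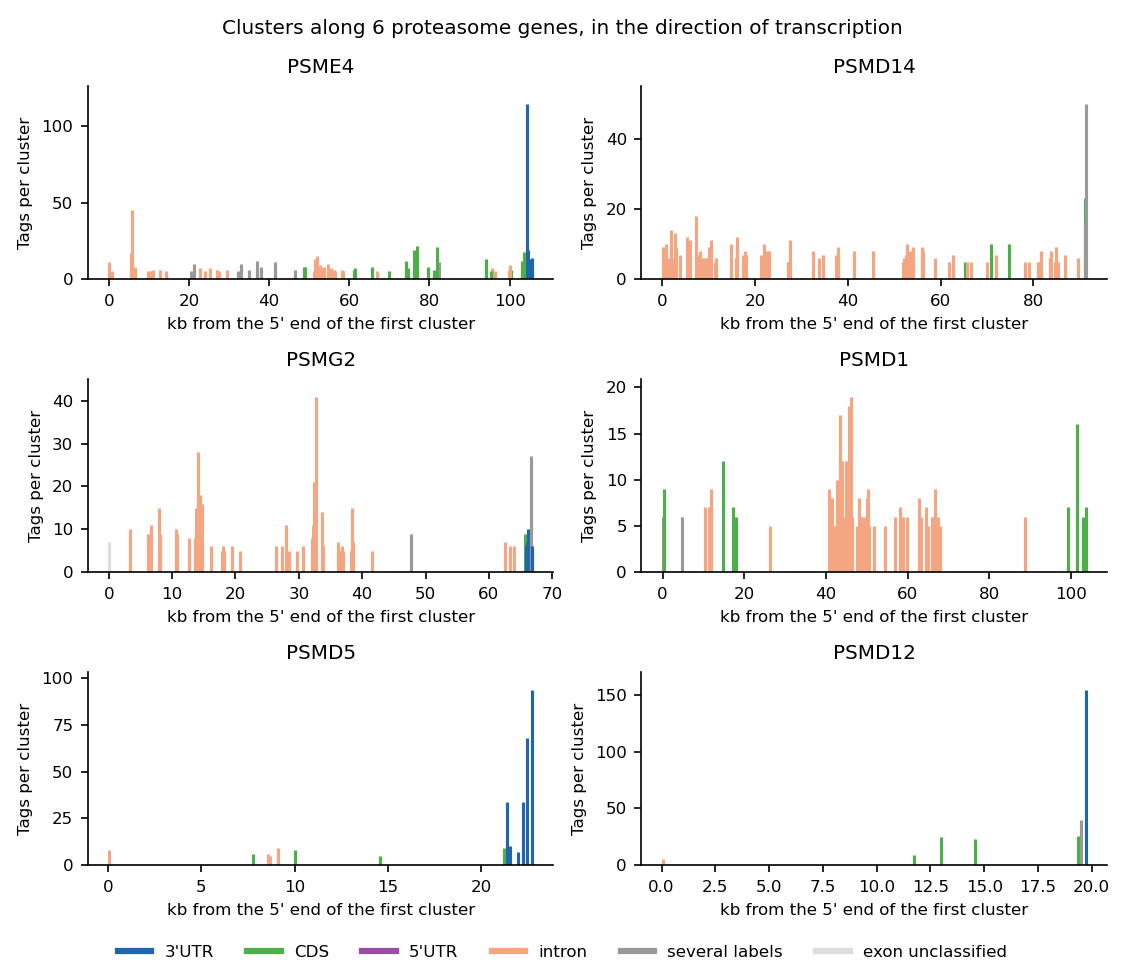
Each line is a cluster of PSME4, PSMD14, PSMG2, PSMD1, PSMD5 or PSMD12, at its distance in kb from the first cluster in the direction of transcription, with its height in tags (authors' total) and its colour the location label. PSMD14 carries 82 low intron clusters along its length, more densely toward the 5' side. PSMD1 has a group of intron clusters around 46.1 kb, and PSMD5 and PSMD12 have their tallest lines at the 3' end.

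In 23 of the 35 genes, PSME4 and PSMD14 among them, the largest cluster had 3'UTR in its label, or 65.7%, beside 72.6% of listed protein-coding genes. In 5 genes it was in an intron and in 5 in CDS alone. Of the 16 genes with at least 5 clusters, 9 had the largest cluster in the last 10% of the span between their first and last clusters, or 56.2%, beside 58.3% of 4999 such genes in the table. Both shares were near those of all genes. PSMD12, PSMD5, PSMA1, PSMB2, PSME3, PSMD11 and PSMC2 had most of their tags in clusters with 3'UTR in the label.

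PSMD12 (Entrez gene 5718, minus strand of chromosome 17) held the largest proteasome cluster. It was a 3'UTR cluster at 62767081 to 62767354, with 40 tags in replicate 1 and 116 in replicate 2, or 54.8% of the gene's tags by the authors' total. CDS alone, with 4 clusters, held 29.3%, and 1 intron cluster held 5 tags. The contacts did not stop at the last cluster given to PSMD12. On the same strand, 13 clusters with no gene and the label for sequence within 10 kb downstream of a gene followed it, the first after 7 nt. They spanned 62764176 to 62767074 and held 120 tags in replicate 1 and 410 in replicate 2, or 119 ± 1.86 CPM (SD, n = 2). Their 525 tags were 1.86 times the 283 of PSMD12 itself. The largest of them, at 62764478 to 62765042, had 54 and 149 tags, more than any cluster listed under a proteasome gene. The table does not say which gene they are downstream of. Past the last cluster of PSMC4, 3 clusters with the same label held 24 tags. The 5 clusters past PSME4, with 36 tags, were labelled as both downstream and upstream of a gene, and no such clusters followed the other 32 genes.

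**Figure D4:**
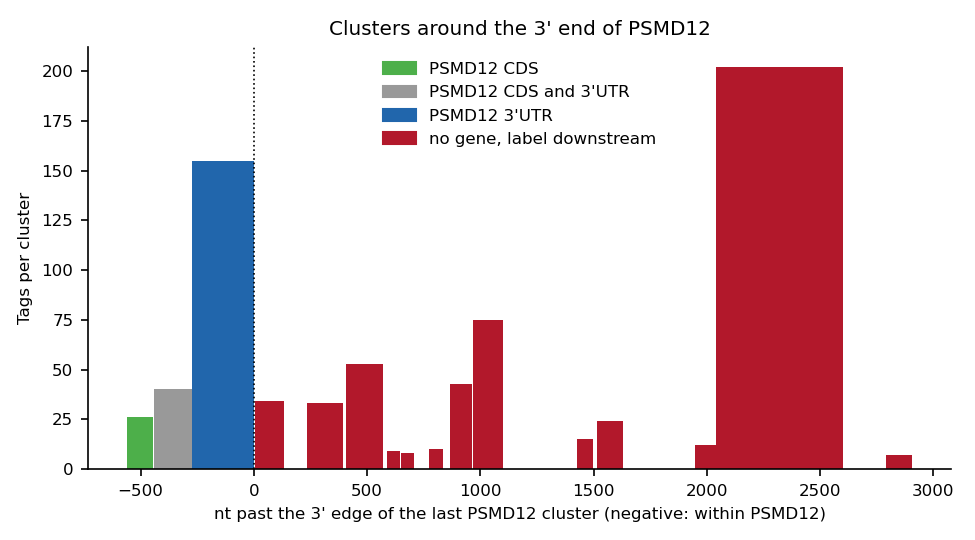
Clusters around the 3' end of PSMD12, drawn to scale in nt from the 3' edge of its last cluster (dotted line), with height in tags (authors' total). The clusters past the line carry no gene and hold 525 tags in all, and the widest of them, with 202 tags, is taller than the 3'UTR cluster of PSMD12, with 155.

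PSMD5 (Entrez gene 5711, minus strand of chromosome 9) had 6 of its 14 clusters in the 3'UTR, within 1.64 kb at 122618369 to 122620004, and they held 81.5% of its tags. Of these, the largest had 22 and 72 tags and the second, 19 and 49. PSMA1 (Entrez gene 5682, minus strand of chromosome 11) had a single dominant cluster at 14483023 to 14483386, across CDS and 3'UTR, with 28 and 109 tags or 60.4% of its tags. PSMB2 (Entrez gene 5690, minus strand of chromosome 1) had 12 of 13 clusters with 3'UTR in the label, over 3.8 kb, and 95.8% of its tags in them. The largest, with 18 and 56 tags, was labelled as both 3'UTR and intron.

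PSME3 (Entrez gene 10197, plus strand of chromosome 17) had 12 clusters in the 3'UTR within 1.87 kb, with 43 tags in replicate 1 and 147 in replicate 2, and 89.5% of its tags. No cluster stood out in PSME3, as the largest held 6 and 29 tags. In PSMD11 (Entrez gene 5717, plus strand of chromosome 17), 10 of 14 clusters carried a 3'UTR label and held 79.3% of the tags, and in PSMC2 (Entrez gene 5701, plus strand of chromosome 7), 10 of 13 clusters held 76.9%. In PSMB2, PSME3 and PSMC2 no cluster was labelled as intron alone.

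PSMB1 (Entrez gene 5689, minus strand of chromosome 6) had 54.3% of its tags in introns and 31.8% in 5'UTRs alone. The tags gathered at the 5' side, where 19 clusters within 3.85 kb, at 170700051 to 170703897, held 45 tags in replicate 1 and 134 in replicate 2, or 72.2% of its tags. Of these, 8 were labelled as 5'UTR alone and 9 as intron. The largest was a 5'UTR cluster at 170701335 to 170701489 with 3 and 22 tags. The only other proteasome gene with a cluster labelled as 5'UTR alone was PSMA4, with 1 such cluster. The single 3'UTR cluster of PSMB1 had 2 and 8 tags, and 8 intron clusters with 10 and 36 tags lay farther along in the direction of transcription.

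The remaining 23 genes had between 5 and 68 tags, with a median of 20 and at most 6 clusters each. In 13 of them no cluster reached 10 tags. Clusters with 3'UTR in the label were found in 17, CDS-only clusters in 10 and intron clusters in 5. Genes with all tags in CDS alone were PSMD2, which encodes another scaffold of the base, with 14 and 24 tags in 5 clusters, and PSMD13, with 2 and 5 tags in 1. The 4 clusters of PSMD10, which encodes the chaperone gankyrin, were all in the 3'UTR and had 15 and 37 tags. The catalytic gene PSMB5 had 1 cluster, in the 3'UTR, with 3 and 14 tags, and PSMB7 had 2 intron clusters with 6 and 6. PSMD6 and PSMA6 were the other genes with most of their tags in introns, at 24 and 5 tags in all. Counts this low do not order the genes, and 9 genes rested on 1 cluster each.

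Some of these small values lie beside other transcripts. Within the span of PSMA3, which had 9 and 16 tags, 38 clusters of an antisense gene listed as FLJ31306, now PSMA3-AS1, held 729 tags on the opposite strand. Within the span of PSMA2, which had 10 and 15 tags, 2 clusters of C7orf25 held 36 tags on the same strand. The strand column separates the first pair, but reads from PSMA2 and C7orf25 on 1 strand cannot be told apart by strand. Processed pseudogenes of proteasome genes are many, and how reads with several matches were treated is not given in the sources used here.

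The replicates were compared next. Replicate 2 held 3.49 times the tags of replicate 1, so 310 of the 465 clusters, or 66.7%, had no more than 2 replicate 1 tags. Across the 35 genes, Spearman's rho between replicates was 0.941 and Pearson's r of log2(tags + 1) was 0.968, beside 0.982 for both over all 7712 genes. Across the 465 clusters rho was 0.212, beside 0.447 over all clusters. Proteasome clusters were shallower, with 29.2% of them at 10 tags or more, beside 41.6% of clusters with a gene. Whether this depth accounts for the lower rho was not tested. The rho and r values are correlations across genes and clusters, which share libraries and are not independent.

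The two-sided exact binomial test of each split against the replicate 1 share over the table, 22.3%, with Benjamini-Hochberg adjustment over all clusters, called 0 of the 465 proteasome clusters, beside 0.0111% of all 233546 clusters. The lowest adjusted p of a proteasome cluster was 0.909, and 15 had an unadjusted p below 0.05. The same exact test on gene totals called 0 of the 35 genes, beside 1.7% of all genes. The lowest adjusted p was 0.217, in PSME4, where replicate 1 gave 26.1% of the tags (95% interval by Wilson's method, 23.2 to 29.2), and 4 genes had an unadjusted p below 0.05. When the expected share was taken from clusters of 100 tags or more, 20.8%, PSME4 passed with an adjusted p of 0.0139 in the exact test. Each listed cluster has a tag in each replicate. The replicate 1 share differed with depth, and the cause of this difference was not tested. Over all intron clusters with a gene it was 24.1%, and 20.7% in those of at least 30 tags. The intron clusters of PSME4 had a median of 6 tags and held 41.3% of its tags. Whether depth accounts for this call was not tested, so the call is not read as an uneven split of PSME4 itself. These tests compare the libraries and not conditions, and with so few replicate 1 tags per cluster only large differences in split could be seen.

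**Figure D5:**
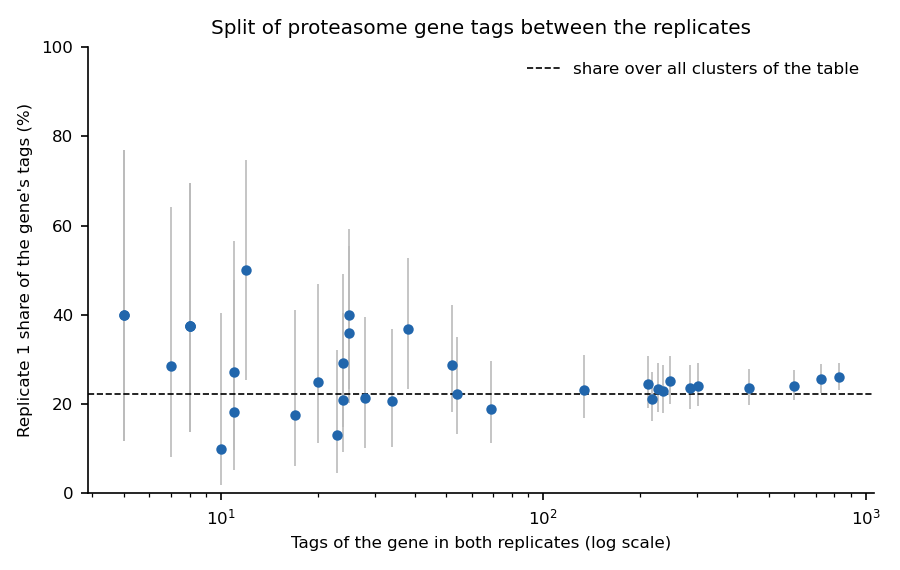
Replicate 1 share of the tags of each of the 35 proteasome genes (%), against its tags in both replicates (log axis), with Wilson 95% intervals that cover counting error only; the dashed line is the share over all clusters, 22.3%. Genes with few tags scatter widely, and PSME4 at the right lies above the line at 26.1%.

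Other genes of the proteasome pathway were read from a list that the rule did not choose. Clusters were listed for 22 of 26 of them, and 15 had more than 100 tags in clusters of at least 10 tags, beside 36.2% and 14.9% of all protein-coding genes. The list was chosen with earlier results of these data known. All protein-coding genes include many that these cells may not express, so these shares do not compare like with like. The median of the 22 was 375 tags, beside 104 over listed protein-coding genes. The first 5 were RAD23B, a shuttle that carries ubiquitinated proteins to the proteasome, with 306 and 1098 tags; UBE3C, a ubiquitin ligase bound to it, with 220 and 761; the shuttle gene UBQLN1 with 198 and 643; UCHL5, a deubiquitinase of the cap, with 179 and 649; and NFE2L2, a transcription factor of the stress response, with 168 and 612. RAD23B and UBE3C had more tags than every proteasome gene in replicate 1 and in replicate 2. NFE2L1, the transcription factor that raises proteasome genes when the proteasome is impaired, had 130 and 577 tags, none of them in clusters labelled as intron alone. The small lid subunit SEM1, listed as SHFM1, had 124 and 495 tags, all in clusters labelled as intron. No cluster was listed for ADRM1, another ubiquitin receptor of the cap, nor for PAAF1, UBA1 and UBQLN4.

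Values for other large groups of housekeeping genes were read beside these. Of 87 cytosolic ribosomal protein genes, 55.2% had a cluster and 8.05% had more than 100 tags, and of 86 respiratory chain and ATP synthase genes, 43.0% and 5.81% did. The medians of listed genes were 25.5 and 29 tags, close to the 28 of the proteasome. The share of clusters in introns was 21.0% in ribosomal protein genes and 44.3% in respiratory chain genes, against 56.1% here, and introns held 13.1%, 31.0% and 41.2% of the tags. The proteasome values rested on PSME4, PSMD14, PSMG2 and PSMD1. Without these genes, introns held 20.5% of the proteasome clusters and 10.1% of the tags. That setting was chosen after seeing the data, and no genes were taken out of the other lists. Gene length was not taken into account, and no test was made between the lists.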

How the data were processed

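Flag-RBM47 HITS-CLIP was measured in 2 replicates of 1 group of MDA231-BrM2a cells. Per the labels, reverse transcription primers carried a degenerate barcode. The authors worked in Galaxy and grouped unique tags into clusters. The submitters' processing notes name Novoalign and hg18, and settings are not given in the sources used here. The authors deposited the counts of unique tags in each cluster, by replicate and in total, summing to 999047 tags for replicate 1 and 3489697 for replicate 2 in the table, which is not library depth. Every cluster has at least 5 tags in total and 1 in each replicate.

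Genes were chosen by the symbol rule. Members and lists were chosen with earlier results of these data known. Genes given with values are the 10 with the most tags, the first of each role, those beside the limit of 100 tags, and those with most tags in introns; others named, such as PSMD2, PSMD10, NFE2L1, SEM1 and the clusters past PSMD12, were picked after their values were seen, as were the 5-kb window and the setting without the 4 leading genes. Of 7712 gene IDs, 7669 matched RefSeq, which supplied current symbols. GENCODE on GRCh37 placed the largest cluster inside the gene for 3 of 35 genes, so no reference coordinate was used. Positions are as listed; whether they count from 0 or 1 is not known.

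Regional shares used clusters with exactly 1 label. CPM (tags per 1000000) is relative to the replicate's sum in the table. Totals are the authors' column; the replicate columns sum to more than it in 36 of 465 clusters and to less in 0, so the 2 can differ slightly. Splits between replicates were tested with exact binomial tests and Benjamini-Hochberg adjustment over the whole table (threshold 0.05), and the step was tested on simulated data. Intervals are Wilson intervals at 95%. Python 3.11.15, scipy 1.17.1 and pandas 2.3.3 were used.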

Additional observations from a re-analysis of the deposited data

How the results depend on the processing

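Among 66 alternatives the value stayed within limits in 28 (1.5 times for a count or rank, the SD between replicates or the 95% interval for others) and moved further in 38. The tag minimum and replicate 2 moved most values. At 10 tags, 22 genes and 136 clusters remained, with 0.809 proteasome tags per 1000, and 3'UTR, intron and CDS shares of 25.0%, 33.1% and 19.1%. At 30 tags there were 10 genes, 18 clusters, 0.467 tags per 1000, shares of 61.1%, 11.1% and 0%, and 5 genes with more than 100 tags. Counting every label that includes the region gave 21.5%, 61.7% and 22.6%, and weighting by tags gave 24.5% in 3'UTRs and 41.2% in introns. Keeping only clusters in which the replicate columns add up to the total gave 1.30 tags per 1000. Without PSME4, PSMD14, PSMG2 and PSMD1, a setting chosen after seeing the data, there were 176 clusters, 0.546 tags per 1000, and shares of 27.8%, 20.5% and 21.0%. The 3'UTR share was thus above the intron share at 30 tags, without these 4 genes and without replicate 2.

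With each replicate left out in turn, the minimum was applied to the other alone. Genes with a cluster ranged from 16 to 32, clusters from 49 to 312, tags per 1000 from 0.698 to 0.989, genes with more than 100 tags from 0 to 8, and the 3'UTR, intron and CDS shares from 16.7% to 34.7%, 22.4% to 48.7% and 16.0% to 24.5%. The set without replicate 2, the deeper library, gave the lower counts, as a fixed minimum is stricter in a smaller library. It left PSMG2 with no cluster of 10 tags and so with no rank. Ranked by tags per kb of cluster length, PSME4 was at 3118, PSMG2 at 3046 and PSMD12 at 565. Against the share in clusters with at least 100 tags, 1 gene was called, PSME4, but most of its clusters were much shallower than those that gave this share. The cause of these shifts was not tested where the setting's own construction does not give it. No paired analysis was possible because all samples belong to 1 group. The depth of replicate 1 limits single clusters.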
